A study of Mus musculus with 4 samples.

Results

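The natural killer (NK) gene complex encodes C-type lectin-like receptors of the Klr families and, among them, the Clec2 proteins that some of these receptors bind. Transcripts of 9 of these genes were followed in dendritic cells grown from the marrow of mice with intact or deleted Rbpj: the Ly49 receptors Klra2 and Klra17, the NKR-P1 receptors Klrb1b, Klrb1c and Klrb1f, the receptor chains Klrd1 and Klrk1, and the ligands Clec2d and Clec2i. Probes were assigned to these symbols through their RefSeq accessions, which gave 13 of the 39429 probes and 9 of the 32496 probe targets on the array. The group was chosen by the measured difference between genotypes, in that Klrb1c was higher and Klra17 lower in Rbpj-deficient cells. The differences between genotypes are therefore given for all 9 genes as a description, and the calls of the fit over all genes are stated for them only as a count to set beside the share of all genes called.

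The data came from 4 one-colour arrays, 2 for each of 2 genotypes. Control cells (BMDC_RFF) carried Rbpj alleles flanked by loxP sites, and Rbpj-deficient cells (BMDC_RFF11) carried the same alleles together with a cre recombinase driven from the CD11c (Itgax) promoter. Both were grown for 6 days in 20 ng/mL GM-CSF from marrow of C57BL/6 mice aged 8 weeks and labelled female, and CD11c+ cells were isolated. RNA was pooled from 4 mice per genotype, and the labels leave unsaid whether the 2 arrays of a genotype had a pool each. The spread between them, on which every SE and p-value rests, may thus be technical. No array held the cre with an intact Rbpj, so the effects of the cre and of the lost gene cannot be told apart.

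As background, most receptors of this complex were first described on NK cells, where they weigh activating against inhibitory signals from the surface of neighbouring cells. Inhibitory members carry a cytoplasmic motif that recruits phosphatases such as Ptpn6, whereas activating members pair with the adaptors Tyrobp (DAP12), Hcst (DAP10) or Fcer1g. Ly49 receptors bind class I MHC molecules, while several NKR-P1 receptors bind Clec2 proteins encoded beside them in the same complex. Some members, among them Klra17 and Klra2, are also known from myeloid and dendritic cells.

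Levels are given as log2 signal minus the 75th percentile of the array, so that a value of 0 is the level of that percentile. Of the 43020 gene spots, 55.2% to 58.4% were well above background on each array, a flag set by the scanner software, and the dimmest such spot lay between -5.95 and -5.50 on this scale. Rbpj itself, which serves as a check of the labels, read 2.69 and 2.61 in control against 1.37 and 1.44 in Rbpj-deficient cells. The Rbpj-deficient cells thus kept 42.1% of the control signal, and 42.3% on a second Rbpj probe. All 17 dendritic cell markers on the array, Itgax among them, were well above background on every array. Genes were compared with limma and Benjamini-Hochberg adjustment over the 17973 genes with a probe that was well above background on both control arrays, on both Rbpj-deficient arrays, or on all 4. At an adjusted p of 0.05, 338 genes passed, or 1.88% of those tested, and 24.1% had an unadjusted p under 0.05.

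All 9 genes lie on chromosome 6 in the RefSeq annotation of GRCm38.p6. Klrb1c and Klrb1b are direct neighbours there, as are Klrd1 and Klrk1, while 14 coding genes lie between Klra17 and Klra2. RefSeq promoter windows, from 250 bases before to 50 bases after a transcript start, were matched for 8 of the 9 genes. The windows of the 3 NKR-P1 receptors are shown because all 3 read higher in Rbpj-deficient cells, and those of the 2 Ly49 receptors because only one of them differed between genotypes by more than the spread of the arrays. Capitals mark TGGGAA, the core bound by RBPJ, and GGAAGT, a core bound by ETS factors such as PU.1, on either strand. Each is printed 5′ to 3′ in the direction of transcription and is taken from RefSeq, build GRCm38.p6.
Klrb1c promoter, chr6:128788592-128788891, minus strand: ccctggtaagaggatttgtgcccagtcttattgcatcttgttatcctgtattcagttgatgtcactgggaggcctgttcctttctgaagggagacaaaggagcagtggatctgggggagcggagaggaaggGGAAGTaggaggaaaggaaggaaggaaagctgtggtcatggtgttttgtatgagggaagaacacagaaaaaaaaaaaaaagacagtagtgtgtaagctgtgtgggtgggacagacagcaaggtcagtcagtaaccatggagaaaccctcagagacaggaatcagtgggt
Klrb1b promoter, chr6:128826266-128826565, minus strand: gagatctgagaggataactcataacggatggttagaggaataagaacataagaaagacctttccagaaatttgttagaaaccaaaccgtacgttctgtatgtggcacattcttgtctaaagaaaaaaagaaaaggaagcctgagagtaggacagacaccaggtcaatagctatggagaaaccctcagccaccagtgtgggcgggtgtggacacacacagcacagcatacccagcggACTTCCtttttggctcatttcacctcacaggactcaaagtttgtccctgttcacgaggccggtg
Klrb1f promoter, chr6:129045651-129045950, plus strand: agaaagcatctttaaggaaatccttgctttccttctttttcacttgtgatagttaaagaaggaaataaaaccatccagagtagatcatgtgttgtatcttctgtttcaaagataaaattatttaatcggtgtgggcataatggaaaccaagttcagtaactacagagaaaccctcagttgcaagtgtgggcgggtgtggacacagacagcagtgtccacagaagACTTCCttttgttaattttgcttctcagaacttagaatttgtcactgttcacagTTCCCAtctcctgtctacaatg
Klra17 promoter, chr6:129876623-129876922, minus strand: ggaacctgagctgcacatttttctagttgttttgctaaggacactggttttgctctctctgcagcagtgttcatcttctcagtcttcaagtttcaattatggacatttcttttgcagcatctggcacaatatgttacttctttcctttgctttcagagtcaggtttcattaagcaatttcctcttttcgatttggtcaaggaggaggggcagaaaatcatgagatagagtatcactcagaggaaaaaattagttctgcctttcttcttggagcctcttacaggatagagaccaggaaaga
Klra2 promoter, chr6:131247313-131247612, minus strand: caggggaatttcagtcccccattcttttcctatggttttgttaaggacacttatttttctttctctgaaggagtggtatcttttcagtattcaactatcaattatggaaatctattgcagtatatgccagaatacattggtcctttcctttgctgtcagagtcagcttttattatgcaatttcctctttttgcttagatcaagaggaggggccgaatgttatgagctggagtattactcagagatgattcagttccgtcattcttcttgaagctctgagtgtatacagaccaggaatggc

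The RBPJ core, searched as TGGGAA on both strands, was found in the windows of Klrb1f, starting 28 bases after the transcript start, and of Clec2d, starting 98 bases before it. Across all 32851 promoter windows of the same length, 25.6% held it. A longer RBPJ site that contains this core, GTGGGAA, was in 0 of the 10 windows of these genes and in 6.38% of all windows. The letters are thus not in the windows of Klra17 and Klrb1c, which says nothing about sites elsewhere. The ETS core GGAAGT, which 23.8% of all windows held, was in the windows of all 3 NKR-P1 receptors and in none of the other 5 genes. It started 119 bases before the transcript start in Klrb1c, 14 before it in the first Klrb1b window and 26 before it in Klrb1f. The RUNX core TGTGGT was in the windows of Klrb1c and Klrk1 and in 16.8% of all windows.

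The windows of Klra17 and Klra2 were the most alike of the 28 pairs, with 75.1% identity in a global alignment, followed by Klrb1b and Klrb1f with 59.2%. The median pair had 48.6% identity. The paralogues are thus alike in this stretch to different degrees, and probe sequences were not used here. Signal shared between near-identical Klr transcripts was not tested.

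**Figure D1:**
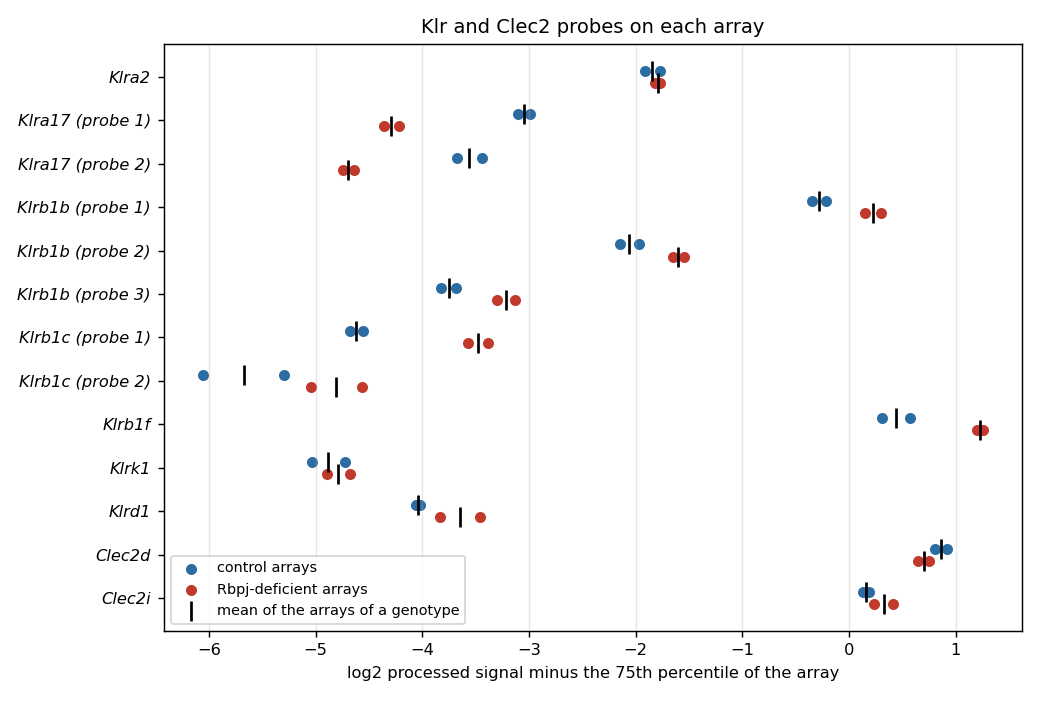
Log2 processed signal minus the 75th percentile of the array (horizontal axis) for the 13 probes of the 9 genes. Each dot is 1 array, blue for control and red for Rbpj-deficient cells, and black bars are the means of the 2 arrays. The red dots of both Klra17 probes lie to the left of the blue dots, and those of all Klrb1b, Klrb1c and Klrb1f probes lie to the right.

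Klra17, known as Ly49Q, is an inhibitory receptor for class I MHC described on plasmacytoid dendritic cells and other myeloid cells. On its brighter probe the control arrays read -3.10 and -2.99, and those of Rbpj-deficient cells -4.36 and -4.22. The genotypes were separated by a gap of 1.12, while the 2 arrays of a genotype differed by far less. The log2 difference was -1.24 (SE 0.08), which left 42.2% of the control signal. In such pooled cells, fewer cells with the transcript and less transcript per cell cannot be told apart. The second probe read -3.68 and -3.44 in control and -4.64 and -4.74 in Rbpj-deficient cells, a difference of -1.13. Both probes were thus well above background everywhere and placed the control arrays higher by similar amounts. With the normexp background correction, which adds an offset of 50 to each signal, the differences were -0.75 and -0.57.

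Klra2, the Ly49 receptor known as Ly49B from myeloid cells, showed no such separation. It read -1.91 and -1.77 in control and -1.77 and -1.82 in Rbpj-deficient cells, so that the groups overlapped. The log2 difference was 0.05 (SE 0.07). It lay between -0.02 and 0.12 when 1 array was left out, and was negative without control replicate 1.

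The 3 NKR-P1 receptors of the group, Klrb1b, Klrb1c and Klrb1f, read higher in Rbpj-deficient cells. Klrb1c is the activating receptor that carries the NK1.1 antigen, by which NK cells of C57BL/6 mice are commonly recognised. Its brighter probe read -4.56 and -4.68 in control and -3.58 and -3.38 in Rbpj-deficient cells. The log2 difference was 1.14 (SE 0.10), or 2.21-fold. The gap between the genotypes was 0.98. Its other probe, designed on another transcript, read -5.29 and -6.06 in control cells, not well above background on either array, and -4.57 and -5.05 in Rbpj-deficient cells. Each control array was then taken at the higher of its own signal and its dimmest spot well above background. On that count the mean of the probe was 1.68-fold brighter in Rbpj-deficient cells. This is no lower bound, since control replicate 1 entered with its own value and the genotypes were only 0.25 apart. Both probes are dim, and with normexp the differences were 0.59 and 0.31.

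Klrb1f, an activating receptor of the same family, read 0.57 and 0.30 in control and 1.20 and 1.26 in Rbpj-deficient cells. The Rbpj-deficient arrays lay closely together and 0.63 above the higher control array. The log2 difference was 0.79 (SE 0.11), or 1.73-fold, and it was 0.77 with normexp.

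Klrb1b, the inhibitory NKR-P1 receptor that binds Clec2d, had 3 probes. The brightest read -0.21 and -0.35 in control and 0.15 and 0.29 in Rbpj-deficient cells. The second read -1.97 and -2.15 against -1.65 and -1.55, and the dimmest -3.69 and -3.82 against -3.30 and -3.13. On each probe both Rbpj-deficient arrays lay above both control arrays. The differences were 0.51 (SE 0.09), 0.46 and 0.54, that is 1.42-fold, 1.37-fold and 1.46-fold. They were close to each other on this scale, although the probes differ widely in brightness. With normexp they were 0.50, 0.42 and 0.28, smallest for the dimmest probe.

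The 2 Clec2 ligands differed little. Clec2d, known as Clr-b and the ligand of Klrb1b, read 0.80 and 0.92 in control and 0.65 and 0.75 in Rbpj-deficient cells. Its log2 difference was -0.17 (SE 0.08). The groups were separated by only 0.05, and the difference lay between -0.22 and -0.11 when 1 array was left out. Clec2i, known as Clr-g and a ligand of Klrb1f, read 0.18 and 0.13 in control and 0.23 and 0.41 in Rbpj-deficient cells, for a difference of 0.17 (SE 0.08). There too the gap was 0.05, smaller than the distance between the 2 Rbpj-deficient arrays. Leaving out Rbpj-deficient replicate 1 gave a difference of 0.26, and leaving out replicate 2 one of 0.08. Set side by side, Klrb1b differed by 0.51 and its ligand by -0.17, and Klrb1f by 0.79 and its ligand by 0.17.

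Klrd1, known as CD94, forms receptors for the class I molecule Qa-1 together with NKG2 chains. It read -4.02 and -4.06 in control cells and -3.83 and -3.46 in Rbpj-deficient cells. The log2 difference was 0.39 (SE 0.14). The genotypes did not overlap, but the Rbpj-deficient arrays differed from each other by more than the gap of 0.19, and with normexp the difference was 0.20. Without Rbpj-deficient replicate 1 it was 0.58 and without Rbpj-deficient replicate 2 it was 0.21. Its partner chain Klrc1 (NKG2A) was not well above background on any array.

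Klrk1, known as NKG2D, is an activating receptor for stress-induced class I-like ligands and signals through Hcst and Tyrobp. It read -4.72 and -5.04 in control and -4.68 and -4.89 in Rbpj-deficient cells. The groups overlapped, and the difference of 0.09 (SE 0.14) turned to -0.06 without control replicate 2 and to -0.01 without Rbpj-deficient replicate 1. The probe is dim, and its 4 values lay 0.77 to 1.26 above the dimmest spot well above background on the same array.

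Of the 9 genes, all of which entered the fit, 1 passed over all genes as higher (Klrb1c) and 1 as lower (Klra17), the pair for which the group was chosen. Among all genes tested, 1.04% passed as higher and 0.84% as lower. The arrays of the 2 genotypes did not overlap for 7 of the 9, where 59.1% of all genes tested did not overlap. Of the 7, 5 were higher and 2 lower in Rbpj-deficient cells, against 26.8% and 32.2% of all genes tested. Their median log2 difference was 0.17, with 7 of 9 above 0, and the median of all genes tested was -0.01. Neither Klrb1c nor Klra17 passed with dim probes included, with the replicate number as a block, or when any 1 of the 4 arrays was left out, and Klrb1c did not pass as the mean of its probes. Without 1 array their differences stayed between 1.04 and 1.24 and between -1.31 and -1.17.

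**Figure D2:**
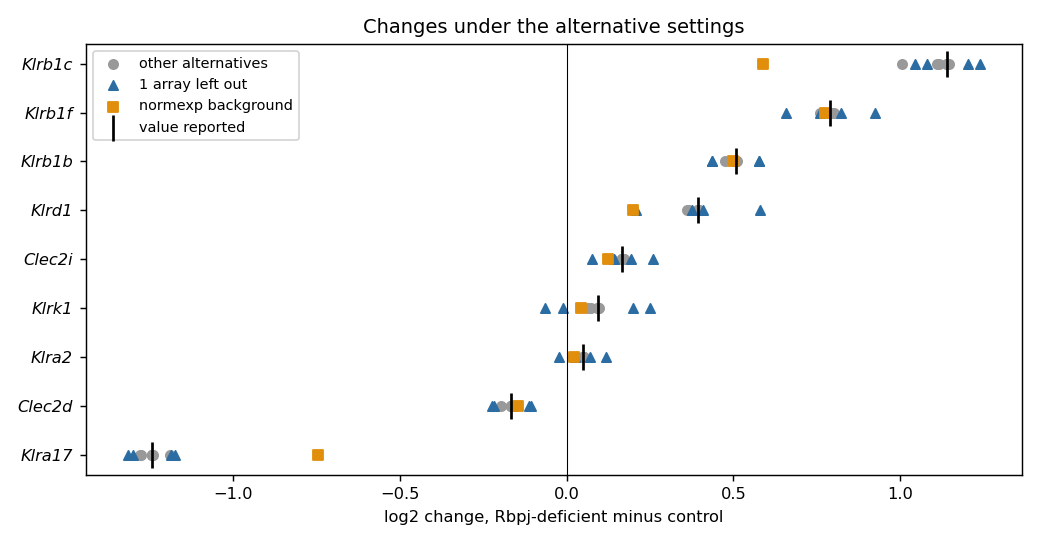
Log2 difference, Rbpj-deficient minus control (horizontal axis), of the 9 genes as reported (black bars) and under each alternative. Triangles leave out 1 array, squares use normexp background correction and grey dots are the other alternatives. Klrb1c and Klra17 move towards 0 with normexp, to 0.59 and -0.75, and Klrk1 and Klra2 lie on both sides of 0.

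The genes with the pattern over the 4 arrays most like that of Klrb1c, by Euclidean distance after each gene was centred on its mean, were Tmem125 at a distance of 0.07, Rtn1 at 0.07 and Tespa1 at 0.07. Those most like Klra17 were Pcp4 at 0.05, Blnk at 0.05 and Palld at 0.09. Tmem125 was not well above background on either control array, and Pcp4 on only 1 of 2 Rbpj-deficient arrays, so their values there have no measured level. The search covered 12755 tested genes with a symbol, and with 4 arrays in 2 groups such closeness mostly reflects a like difference between the genotypes. Blnk, an adaptor of immune receptor signalling, read 3.24 and 3.36 in control and 2.05 and 2.17 in Rbpj-deficient cells. Rtn1, a reticulon of the endoplasmic reticulum, read 1.87 and 1.79 in control and 2.86 and 2.99 in Rbpj-deficient cells.

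Among other genes of the NK complex and the neighbouring myeloid lectins, 34 of 46 listed had a probe and 17 were tested. In limma 0 of the 17 passed, with 7 at an unadjusted p under 0.05 (24.1% of all genes), and their median difference was 0.05 against -0.01 for all genes. Klra6, a further Ly49 receptor whose value was the farthest from 0, read -5.84 and -6.32 in control cells, not well above background on either array, and entered the fit through the Rbpj-deficient arrays alone. These read -5.77 and -4.05, so that replicate 1 lay about level with the first control array and the difference rested on replicate 2. The Ly49 genes Klra1 (0.64, adjusted p = 0.0503) and Klra8 (-0.47, adjusted p = 0.184), which were named after their values were seen, lay on opposite sides of 0 without passing. Klrb1a, the NKR-P1 receptor encoded near Klrb1c, stood at -0.17 (adjusted p = 0.225), and Klrb1 at 0.41 (adjusted p = 0.117). Both were likewise named after their values were seen. Of the 17 tested genes, 9 lay above 0 and 8 below. The Clec2 genes Clec2e, Clec2g and Clec2h were not well above background on any array.

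**Figure D3:**
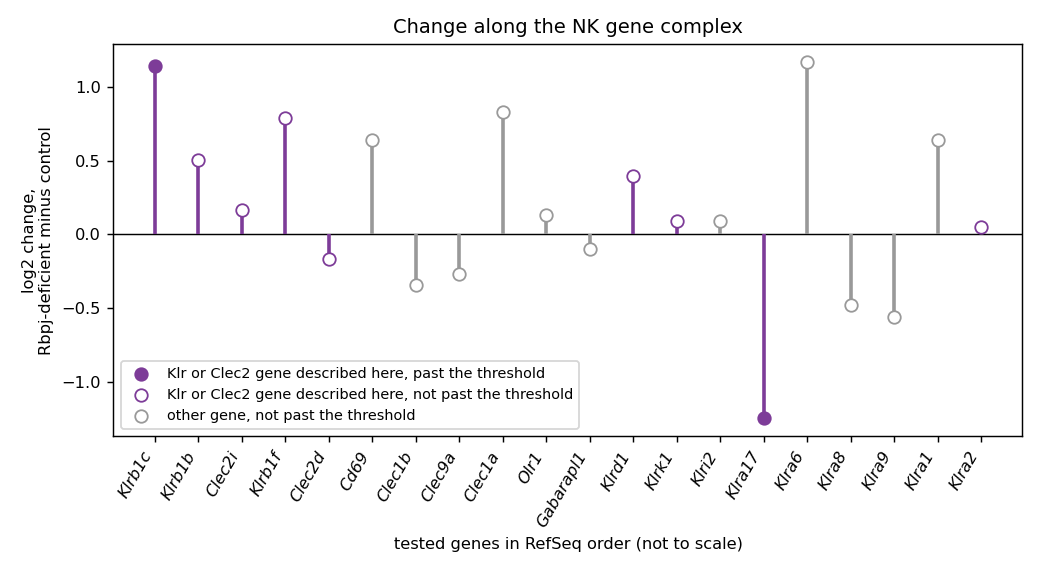
Log2 difference, Rbpj-deficient minus control (vertical axis), of the 20 tested genes from Klrb1c to Klra2 in RefSeq order, with even spacing in place of distance. Purple marks the 9 genes described here and grey the others, and filled circles passed the threshold over all genes. Klrb1c at 1.14 and Klra17 at -1.24 are the filled points, and values of both signs lie between them.

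No class I or NKG2D ligand of these receptors passed. The list held class I molecules, the Qa-1 gene H2-T23, and ligands of NKG2D, without the Clec2 proteins, and 7 of its 16 genes were on the array and tested. In limma 0 of 7 passed, with 3 at an unadjusted p under 0.05 (24.1% of all genes). The median was -0.18, and 6 of 7 lay below 0. B2m, the invariant chain of class I, was farthest from 0 at -0.30 (SE 0.09, adjusted p = 0.16). The NKG2D ligands Ulbp1 (-0.24, adjusted p = 0.139) and Raet1e (0.16, adjusted p = 0.531), named after their values were seen, went in opposite directions without passing.

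Adaptors and kinases of the receptors were bright and differed little. Tyrobp read 7.25 and 7.27 in control and 7.23 and 7.10 in Rbpj-deficient cells. Hcst stood at -0.17 (SE 0.06, adjusted p = 0.19) and Fcer1g at -0.13 (SE 0.06, adjusted p = 0.293). None of these 3 adaptors passed. Of 27 listed signalling partners 24 were tested and 0 passed in limma, with 8 at an unadjusted p under 0.05 (24.1% of all genes) and a median of 0.08.

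Because Klrb1c marks NK cells, other markers of NK cells were read beside it. Of 28 NK markers on the array, 14 were well above background on no array, among them Ncr1, Eomes, Tbx21, Gzma and Il2rb, and 10 were so on all 4, among them the effector genes Prf1 (-1.67 in control and -1.54 in Rbpj-deficient cells) and Nkg7 (1.85 and 1.64). These genes were named after their values were seen. A second Nkg7 probe was well above background on no array, with means of -6.51 in control and -6.74 in Rbpj-deficient cells. Of the 11 tested, 2 passed as higher (Txk and Cd244a), the chemokine Ccl5 fell and 8 did not pass, with a median of -0.10. For comparison, 1.04% of all genes tested passed as higher and 0.84% as lower. Txk, a Tec-family kinase of T and NK cells, entered the fit through the Rbpj-deficient arrays alone, so its call rests on control values below that flag. It was at least 1.99-fold brighter there, with control arrays not well above background. Cd244a, the receptor 2B4, read 1.56 and 1.55 in control and 2.34 and 2.37 in Rbpj-deficient cells, a change of 0.80 (SE 0.05, adjusted p = 0.0322). Ccl5, which mature dendritic cells also make, fell by 0.85 (SE 0.05, adjusted p = 0.0322). The summed linear signal of the list was 140.5 to 141.6 in control and 91.3 to 91.9 in Rbpj-deficient cells, relative to the 75th percentile, and 44.7 to 44.9 against 37.3 to 38.9 without Ccl5, its brightest gene.

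**Figure D4:**
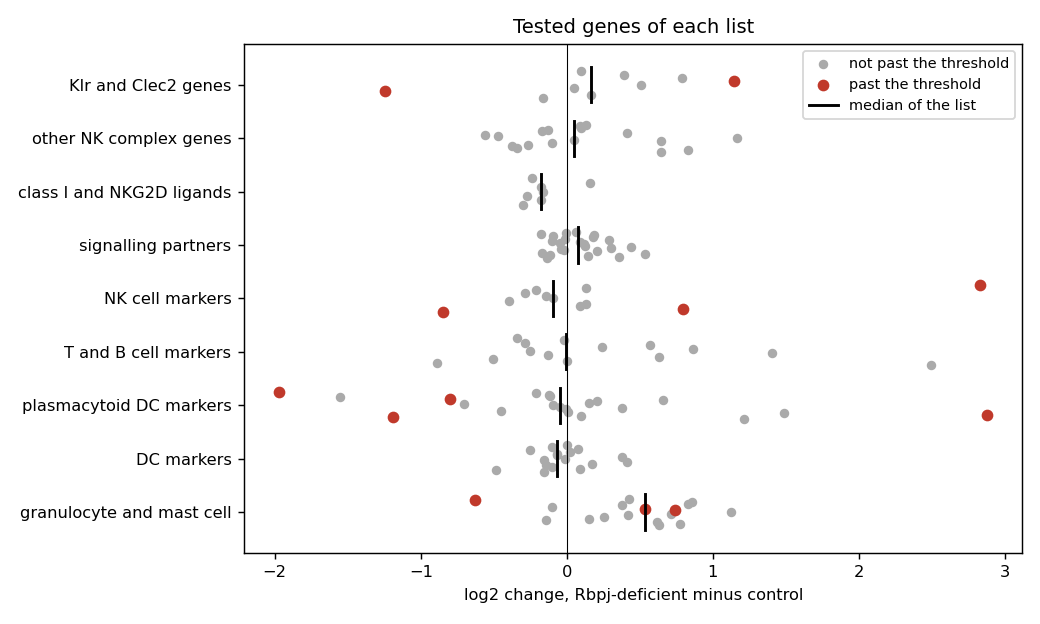
Log2 difference, Rbpj-deficient minus control (horizontal axis), of every tested gene in each list, with red dots for genes past the threshold over all genes and black bars for medians. The medians of most lists lie near 0, with 0.17 for the Klr and Clec2 genes and 0.54 for granulocyte and mast cell genes, and the red dots near 2.8 and 2.9 are Txk and Cd7.

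Markers of plasmacytoid dendritic cells, where Klra17 is known to be expressed, went both ways. Of 21 tested in limma, Cd7 rose by 2.88 (SE 0.11, adjusted p = 0.0165), Upb1, Blnk and Smim5 fell and 17 did not pass. The shares of all genes that passed were 1.04% as higher and 0.84% as lower. The median of the 21 was -0.05, with 9 above 0 and 12 below. Upb1, an enzyme of pyrimidine breakdown, fell by 1.97 (SE 0.13, adjusted p = 0.0322), and Blnk fell by 1.19 (SE 0.08, adjusted p = 0.0322). Siglech, a defining receptor of these cells, and Spib, of the same list, were named after their values were seen, and neither passed. Spib fell by 1.55 (SE 0.24, adjusted p = 0.0664). Siglech read 4.71 and 5.23 in control and 5.62 and 5.64 in Rbpj-deficient cells (adjusted p = 0.154). The second, dimmer Siglech probe differed by 0.78 (SE 0.10). The summed signal of the list was 176.1 to 195.7 in control and 198.9 to 199.7 in Rbpj-deficient cells. Without Mpeg1, its brightest gene, it was 113.4 to 129.7 in control and 136.9 on both Rbpj-deficient arrays.

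Of 14 tested T and B cell markers 0 passed in limma, with 8 at an unadjusted p under 0.05 (24.1% of all genes) and a median of -0.01. Blk, a Src-family kinase of B cells whose value was the farthest from 0, entered the fit through the Rbpj-deficient arrays, at -3.53 and -3.69. Of the control arrays only replicate 2, at -5.57, was well above background. Of the 27 T and B cell markers on the array, 12 were well above background on no array and 13 on all 4. Of 17 tested markers of granulocytes, mast cells and basophils, 14 did not pass in limma. Mpo (0.74, adjusted p = 0.0378) and Ngp (0.54, adjusted p = 0.0445) rose and Siglecf (-0.63, adjusted p = 0.0378) fell. Among all genes, 1.04% passed as higher and 0.84% as lower. The median of these 17 markers was 0.54, and 14 of them lay above 0. In limma 13 of the 17 had an unadjusted p under 0.05 (24.1% of all genes). The summed signal of the list was 27.4 to 30.7 in control and 41.3 to 50.3 in Rbpj-deficient cells. Without S100a9, its brightest gene, the sums were 13.8 to 14.5 and 17.5 to 20.2. Of the 17 tested dendritic cell markers 0 passed in limma, with 4 at an unadjusted p under 0.05 (24.1% of all genes), and Ccr7 was farthest from 0 at -0.48 (adjusted p = 0.0931). The part of these cells in the differences of Klrb1c, Klra17 and the other Klr genes was not tested.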

How the data were processed

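The deposited scanner files hold spot intensity read with Agilent Feature Extraction 10.7.1.1, per the file headers and the submitters' processing notes, with background subtracted and no scaling between arrays. That software also set the flags for outlying spots and for spots well above background, per the file headers. The 4 arrays lay on 1 slide, each genotype at neighbouring positions, so position and genotype cannot be told apart. Outlier spots (127 to 176 an array) were left out, 0 spots were saturated, and 0 columns of other samples were left out. The authors' deposited table holds log2 values that matched the scanner signal, scaled per array and centred per probe, with Pearson r of at least 0.999999 and column medians of -0.03 to 0.05. Its steps are not given in the sources used here, and it served as an alternative.

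Signal was taken to log2, reduced by the array's 75th percentile over gene spots and averaged over spots of a probe. Each gene was represented by its brightest kept probe and genotypes were compared with limma 3.58.1 in R 4.3.3 (lmFit, eBayes, Benjamini-Hochberg). SE values are those of this fit, whose precision the small number of arrays limits. The SE of the second Siglech probe is from the same model fitted to all kept probes. The fit was tested on simulated data. Of 39429 probes 26055 were named through RefSeq accessions (GRCm38.p6) and 13374 were not. Motifs were searched and windows aligned with Python 3.11.15 and biopython 1.88.

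Members, gene lists and tests were chosen with earlier results of these data known. Apart from the 9 genes, those named were Rbpj, Itgax and the adaptors Tyrobp, Hcst and Fcer1g, from each list up to 2 of the highest and 2 of the lowest genes that passed or, where none did, the one farthest from 0, and the 3 genes nearest in pattern to Klrb1c and to Klra17. One result that this rule covers is not reported here. Others are marked as named after their values were seen, and so were the undetected genes Klrc1, Clec2e, Clec2g, Clec2h, Ncr1, Eomes, Tbx21, Gzma and Il2rb. Alternatives were 2 other scalings, normexp with an offset of 50 on median spot and background signals (the files used hold no mean signal), the deposited table, 2 other filters, another variance prior, mean probes, a replicate block and each array left out.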

Additional observations from a re-analysis of the deposited data

How the results depend on the processing

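Of 117 alternative values for the 9 genes, 113 lay within 1 SD between arrays of the reported value. The other 4 were Klra17, Klrb1c and Klrd1 with normexp (-0.75, 0.59 and 0.20) and Klrb1c as the mean of its probes (1.01). Much of this closeness was fixed in advance. With 2 arrays a genotype, leaving 1 out cannot move a difference beyond that SD. The 2 other filters, the other variance prior and the block left the 9 differences unchanged. The count of 113 is thus no measure of robustness. None of the alternative values for Klrb1c or Klra17 changed sign. Counts of calls moved far more. Over all genes limma called 338 genes as reported, 1036 with normexp, 1547 with a trended and robust variance prior, 0 with dim probes included (3653 at an unadjusted p under 0.05), 0 with a replicate block (3677) and 0 to 1 without 1 array (2976 to 3504). Same-numbered arrays did not deviate together (r = -0.05 over 17973 genes). With only 1 difference between arrays in each genotype, this cannot show whether the arrays were prepared in pairs. The count for the 9 genes went from 2 to 4 with normexp and with the other variance prior (Klrb1b and Klrb1f added). It was 3 with median scaling and with signal required on all 4 arrays (Klrb1f added). It was 1 with mean probes (Klra17), and 0 with dim probes included and with the block. In those last settings the counts of NK cell, plasmacytoid dendritic cell and granulocyte lists were 0 too. With normexp the counts were 2 for other NK complex genes, 8 for plasmacytoid dendritic cell markers, 2 for signalling partners, 4 for T and B cell markers, 1 for dendritic cell markers and 9 for granulocyte and mast cell genes. With the other variance prior they were 2, 8, 4, 3, 2 and 11 in the same order. Median scaling gave 1 for other NK complex genes. Requiring signal on all 4 arrays gave 1 for that list, 1 for signalling partners and 5 for granulocyte and mast cell genes. The cause of these shifts was not tested. Signal over background limits the dim probes: the second Klrb1c probe was not well above background on either control array, and the lowest values of Klrk1, of the brighter Klrb1c probe and of the second Klra17 probe lay 0.77, 0.94 and 1.01 above the dimmest spot that was.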
